A study of Mus musculus with 6 samples.

Results

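The subject is a set of 40 mouse genes of the interferon response and of nucleic acid sensing, chosen by name from the pathway, of which 38 were among the 20756 genes of the deposited table. The levels of Ifit2 and Oas2 were not analysed here. The genes were followed in cultures labelled MTO, which the labels leave unexplained, of mouse strain C57BL/6. All samples were untreated and, per the labels' protocols, grown in a medium with B-27 and 50 ng/ml EGF. The 3 sgC samples carried a control guide, and the 3 sgPrkci/Prkcz samples carried guides against the genes of both atypical protein kinases C, Prkci and Prkcz. The labels do not say whether the edited cells were clones or pools or whether replicates were grown apart. The p-values therefore reflect sample-to-sample spread that may be technical. The labels also describe injection under the skin, and the design text names tumors and a larger number of replicates, while the table used here carries an in vitro mark. Transcripts were counted by 3′ tag sequencing, in which a transcript gives tags near its 3′ end.

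Cells recognise foreign or misplaced nucleic acid with receptors such as RIG-I (Ddx58) and MDA5 (Ifih1) for RNA and cGAS for DNA, which signal through the adaptors MAVS and STING (Tmem173) to the kinase TBK1 and the transcription factor IRF3. Type I interferon made in response binds the IFNAR1 and IFNAR2 receptor pair and activates a complex that includes STAT2 and IRF9 at the interferon-stimulated response element (ISRE), while interferon gamma binds IFNGR1 and IFNGR2 and acts at the GAS element. The genes so induced encode antiviral effectors, and gut epithelium is known to keep a low basal level of many of them without infection.

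Sequences of the ISRE are shown first because it is the element through which type I interferon is known to act. The ISRE core was searched as GAAA, any 2 bases and GAAA, and the GAS core as TTCNNNGAA, on both strands and counting overlapping matches, in RefSeq promoter windows (GRCm38.p6) of 250 bases before to 50 after a gene start. Windows were found for 30 of the 40 genes (36 windows, since some have several starts). The ISRE core was present in 12 of these 36 windows and in 3.44% of the 32851 windows of the table, and the GAS core in 8 of 36 and 8.30%. A match describes letters and not a site in use. The whole windows of Isg15 and Bst2, which fell, and of Gbp7, which rose, are printed 5′ to 3′ along the gene, with ISRE core matches in capitals:

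Isg15, chr4:156200769-156201068, minus strand: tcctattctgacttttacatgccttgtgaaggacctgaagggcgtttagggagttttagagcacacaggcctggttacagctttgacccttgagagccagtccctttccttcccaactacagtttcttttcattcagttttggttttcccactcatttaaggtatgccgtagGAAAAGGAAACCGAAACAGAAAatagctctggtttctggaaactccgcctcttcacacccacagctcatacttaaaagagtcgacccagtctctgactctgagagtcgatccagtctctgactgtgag

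Bst2, chr8:71537423-71537722, minus strand: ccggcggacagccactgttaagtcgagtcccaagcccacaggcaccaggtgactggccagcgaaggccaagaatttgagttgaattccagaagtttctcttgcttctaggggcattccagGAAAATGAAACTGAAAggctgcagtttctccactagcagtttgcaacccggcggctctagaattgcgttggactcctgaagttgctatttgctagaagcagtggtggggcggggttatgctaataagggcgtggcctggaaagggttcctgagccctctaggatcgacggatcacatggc

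Gbp7, chr3:142530086-142530385, plus strand: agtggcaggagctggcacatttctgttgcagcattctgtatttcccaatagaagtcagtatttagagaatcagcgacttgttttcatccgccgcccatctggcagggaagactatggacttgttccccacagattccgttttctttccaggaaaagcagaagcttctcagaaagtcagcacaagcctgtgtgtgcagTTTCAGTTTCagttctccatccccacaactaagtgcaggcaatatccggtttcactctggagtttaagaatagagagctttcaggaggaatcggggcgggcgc

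The Isg15 window held 3 overlapping matches in a run, a number reached by 5 of all 32851 windows, and the Bst2 window held 2 overlapping ones. The Gbp7 window held 1 match, on the opposite strand, and 2 GAS cores (TTCCAGGAA and TTCTCAGAA) before it. Stretches with the match and 12 bases on each side, where the window allows, show the element in genes that were tested but did not pass the threshold (Ddx58, Ifih1, Rsad2, Stat2) and in genes too low to test (Ifit1, Ifit3, Cxcl10, Gbp2):

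Ddx58, chr4:40239802-40239835, minus strand: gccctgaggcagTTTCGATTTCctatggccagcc

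Ifih1, chr2:62646206-62646235, minus strand: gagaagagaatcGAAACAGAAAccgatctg

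Rsad2, chr12:26456551-26456584, minus strand: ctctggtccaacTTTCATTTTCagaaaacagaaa

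Stat2, chr10:128270264-128270297, plus strand: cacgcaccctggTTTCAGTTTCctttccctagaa

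Ifit1, chr19:34640773-34640825, plus strand: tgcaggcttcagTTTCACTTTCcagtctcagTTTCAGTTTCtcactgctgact

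Ifit3, chr19:34583361-34583428, plus strand: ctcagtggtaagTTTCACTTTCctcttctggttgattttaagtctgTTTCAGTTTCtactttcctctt

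Cxcl10, chr5:92349081-92349114, minus strand: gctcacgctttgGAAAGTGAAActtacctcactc

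Gbp2, chr3:142620592-142620625, plus strand: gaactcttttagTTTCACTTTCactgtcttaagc

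Levels are CPM, reads per 1000000 reads assigned to genes, given as mean ± SD with n = 3 per genotype. The libraries held 2821908 to 3048170 reads in sgC against 1543826 to 1808292 in sgPrkci/Prkcz, so depth followed genotype. Of the guide targets, Prkci had 139, 166 and 180 reads in sgC against 97, 98 and 83, a log2 fold change of 0.00 (95% interval -0.28 to 0.27), and Prkcz had 19, 17 and 14 against 7, 3 and 1. The cut sites are not in the labels, and tags from the 3′ end cannot test whether the kinases were lost. The 5 tested genes of chromosome Y had a median log2 fold change, sgPrkci/Prkcz minus sgC, of 4.01. Medians of the other chromosomes ran from -0.44 (chromosome 11) to 0.31 (mitochondrial genes). The cause of the Y difference was not tested, and the design cannot tell it apart from genotype. Epithelial markers, all 10 of which were in the table, summed to 3465 to 4018 CPM in sgC against 3708 to 4193 in sgPrkci/Prkcz. Of the 9 tested, Epcam (0.52) and Vil1 (0.97) rose, Krt18 (-0.21) and Cdx2 (-1.03) fell, and Cdx1 had 1 read in all. Of 15 leukocyte markers 6 were in the table. Fcer1g and Coro1a were at 0, Ptprc had 2 reads in sgC against 5 in sgPrkci/Prkcz, and the summed level was 11.8 to 12.4 CPM in sgC against 13.3 to 19.9 in sgPrkci/Prkcz, nearly all from Cd68 and Cd14. Fibroblast markers (7 of 9 in the table, Lum and Acta2 at 0) summed to at most 2.35 CPM in any library and endothelial markers (3 of 6, Pecam1 and Cdh5 at 0) to at most 0.335. The part of other cells in the results was not tested. In bulk samples, fewer cells of a kind and less RNA per cell cannot be told apart.

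Genes of the interferon response did not move as a block. Of the 38, 25 passed the filter of at least 1 CPM in at least 3 samples, with group means from 0.963 to 86.7 CPM, and 13 did not. Among the tested genes 4 rose (Isg20, Ifngr2, Mx1 and Gbp7) and 5 fell (Isg15, Oasl1, Bst2, Ifi35 and Trim25) at a Benjamini-Hochberg adjusted p under 0.05 by limma on log2(CPM + 1). Over all 12207 tested genes 11.4% rose and 23.8% fell, so the shares of risen (16%) and fallen (20%) interferon genes were near this background. Their median log2 fold change, sgPrkci/Prkcz minus sgC, was -0.11 against -0.17 for all tested genes. All sgPrkci/Prkcz samples lay above all sgC samples for 6 of the 25 and below them for 8, against 15.0% and 30.0% of all tested genes. The summed level of the 38 genes was 462 to 500 CPM in sgC against 492 to 523 in sgPrkci/Prkcz, and these ranges overlap. Relative to the median of all genes, that is with the median change set to 0, 8 of the 25 rose and 4 fell, against 17.4% and 14.4% of all genes. The 4 further rises were Irf1, Mavs, Ifngr1 and Ifnar1, and the fall no longer called was that of Trim25. By edgeR's quasi-likelihood test on the recovered whole reads, 7 of 21 rose and 3 fell, against 19.9% and 18.2% of 9842 genes. The edgeR filter left out Isg15, Irf7, Ifi27 and Rsad2.

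**Figure D1:**
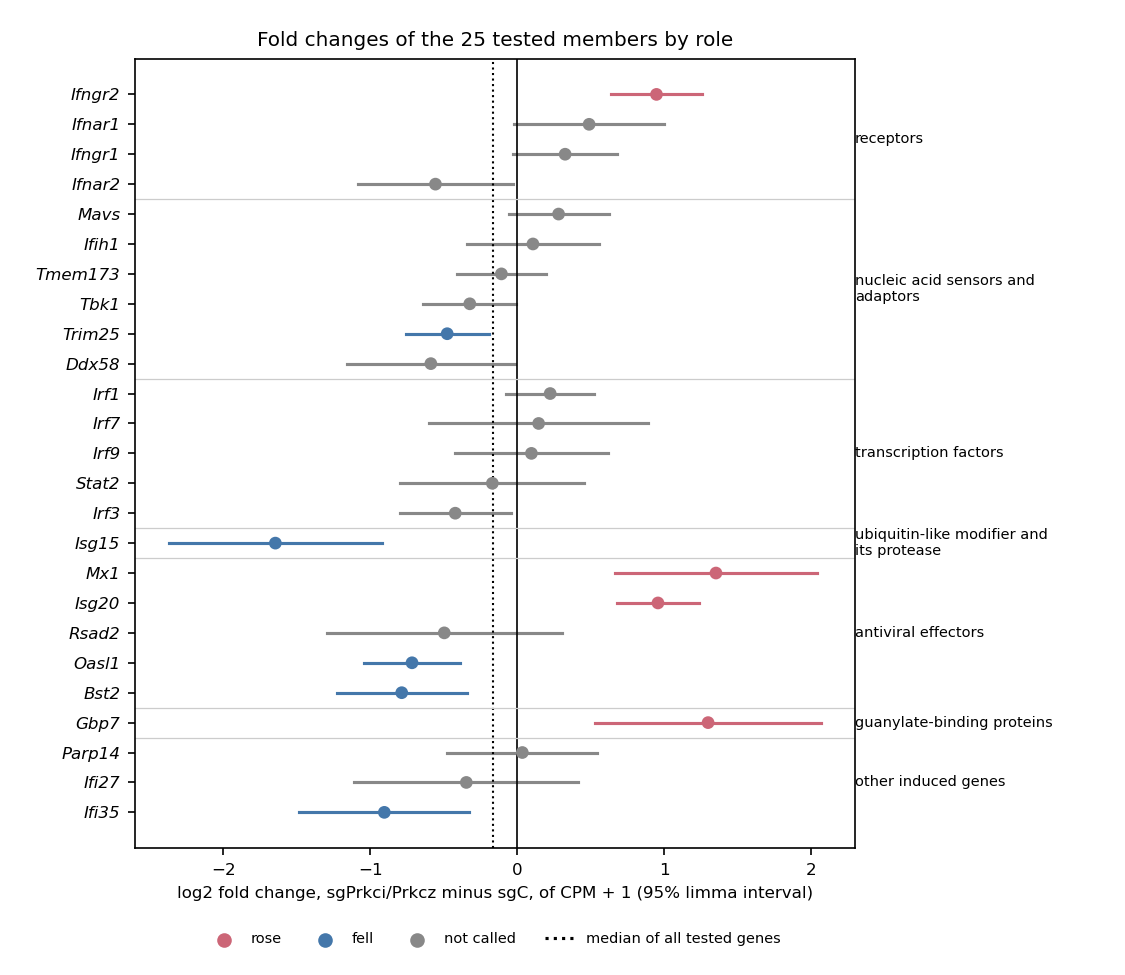
Log2 fold change (sgPrkci/Prkcz minus sgC, of CPM + 1) with its 95% limma interval for the 25 tested genes, grouped by role; the dotted line is the median of all tested genes at -0.17. Isg15 lies lowest at -1.64 and Mx1 highest at 1.35, and the intervals of 13 of the 25 genes leave out 0.

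Among the receptor chains, the signalling chain of the interferon gamma receptor rose. The type I receptor chains differed in sign, but neither passed the threshold. Ifngr2 (ENSMUSG00000022965, chromosome 16, 91547072 to 91565623) stood at 29.8, 25.3 and 24.8 CPM in sgC and at 61.4, 47.0 and 49.2 in sgPrkci/Prkcz. All sgPrkci/Prkcz samples were above all sgC samples, a log2 fold change of 0.95 ± 0.15 (SE; limma, Benjamini-Hochberg adjusted p = 1.54e-05), and the call was kept in all 18 alternative settings. Ifngr1, the ligand-binding chain on chromosome 10, went from 23.3 ± 0.743 to 29.8 ± 5.22 CPM, 0.33 with a 95% interval of -0.03 to 0.68, and passed the threshold only in 5 of 18 alternatives. Ifnar1, at 6.03, 10.2 and 11.3 CPM in sgC against 13.6, 12.2 and 12.95 in sgPrkci/Prkcz, gave 0.49 with an interval of -0.02 to 1.00 (limma, Benjamini-Hochberg adjusted p = 0.130). Here the groups were apart, but sgC replicate 1 lay well below the other sgC samples. Ifnar2, the other type I chain, stood at 13.4, 11.2 and 11.7 CPM in sgC against 6.25, 6.64 and 11.7 in sgPrkci/Prkcz, -0.56 with an interval of -1.08 to -0.03 (limma, Benjamini-Hochberg adjusted p = 0.0970). The groups overlapped through sgPrkci/Prkcz replicate 3 alone, and without that library the adjusted p was 0.0187 (range 0.0187 to 0.520 over 18 alternatives).

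Ifnar2, Il10rb, Ifnar1 and Ifngr2 lie in this order on the same strand of chromosome 16, with starts within 174 kb. Il10rb, the shared chain of the receptors for interferon lambda and interleukin 10, is not in the set of 40 and was in a wider pathway list. It rose from 36.1 ± 2.77 to 51.4 ± 4.73 CPM (0.50; limma, Benjamini-Hochberg adjusted p = 0.00669). The difference between neighbours was tested after their values were seen, on the log2 ratio of CPM + 1 within each sample. For Ifngr2 over Ifnar2 the log2 ratio was 1.10, 1.11 and 1.02 in sgC against 3.10, 2.65 and 1.99 in sgPrkci/Prkcz. For Ifnar1 over Ifnar2 its mean went from -0.40 ± 0.55 to 0.65 ± 0.45. Neither ratio overlapped between the groups. In an exact two-sided permutation test both gave p = 0.1 (0.1 adjusted over the 2 ratios), the smallest p that 3 against 3 samples allow. With the groups already seen to be apart, the test could return only this value, so it cannot decide whether the neighbours differ. The next gene along, Tmem50b, changed by 0.11 (95% interval -0.17 to 0.39), and Gart, a purine synthesis enzyme gene further on, fell (-1.01). Without a stated strand setting, tags of overlapping genes cannot be told apart, and Ifnar2 overlaps a read-through model, Gm21970, that was not analysed here.

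**Figure D2:**
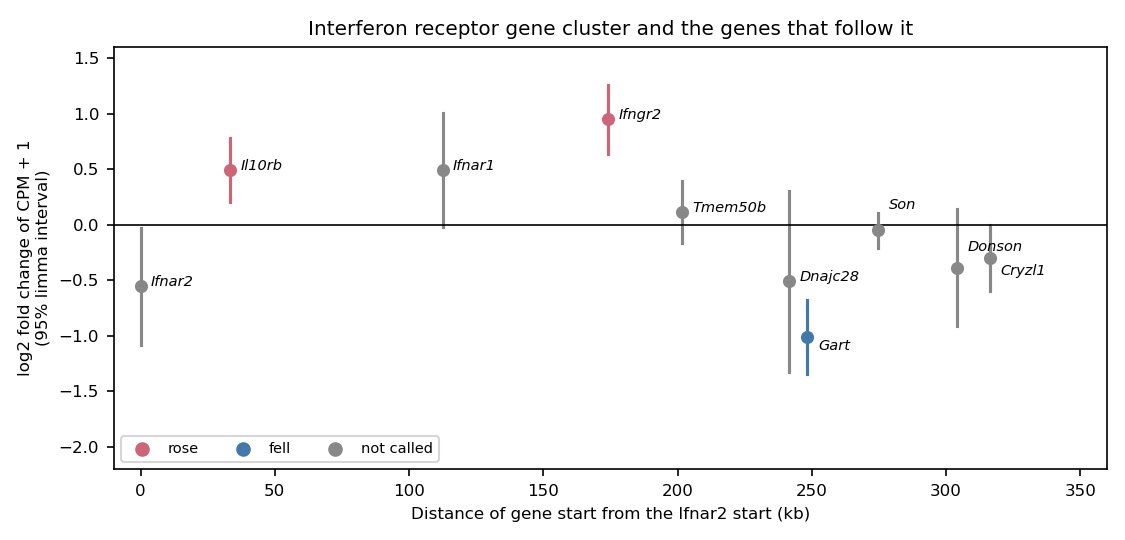
Log2 fold change (sgPrkci/Prkcz minus sgC, of CPM + 1) with its 95% limma interval for each tested gene of the interferon receptor cluster and of the stretch after it, against the distance of the gene start from that of Ifnar2 in kb. Il10rb and Ifngr2 lie above 0, Ifnar2 at -0.56 and Gart at -1.01.

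Genes for nucleic acid sensing and the adaptors below it mostly did not pass the threshold. Trim25, the ubiquitin ligase that helps activate RIG-I, was the exception among the 6 tested of 8. It stood at 48.9, 50.2 and 53.2 CPM in sgC against 35.2, 39.3 and 34.3 in sgPrkci/Prkcz, a fall with no overlap (-0.48 ± 0.14 SE; limma, Benjamini-Hochberg adjusted p = 0.00807). Trim25 (chromosome 11, 88999376 to 89020293) lies where genes shifted together. The median of its 40 nearest tested genes was -0.57 and that of chromosome 11 was -0.44, and with chromosome medians removed its log2 fold change was -0.03. Its call was lost in 5 of 18 alternatives (adjusted p from 0.00679 to 0.894 over all of them).

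Of the RNA receptors, Ddx58 stood at 15.4, 8.20 and 8.50 CPM in sgC against 5.68, 8.30 and 5.83 in sgPrkci/Prkcz. The groups overlapped, sgC replicate 1 was well above the other sgC samples, and the log2 fold change was -0.59 with a 95% interval of -1.16 to -0.02 (limma, Benjamini-Hochberg adjusted p = 0.104). Ifih1 was at 16.2 ± 3.33 and 17.6 ± 4.44 CPM (0.11, interval -0.34 to 0.56). Dhx58, the regulatory receptor LGP2, had 0 reads in sgC against 1 in sgPrkci/Prkcz, and Zbp1, a sensor of Z-form nucleic acid, had 1 and 0. These counts are at or under the floor of 3 reads per group, which allows up to 0.339 CPM in sgC against 0.587 in sgPrkci/Prkcz and covers counting error only.

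The adaptors Mavs and Tmem173 and the kinase Tbk1 were clearly expressed in both genotypes. Tmem173 (STING) stood at 36.4 ± 1.56 CPM in sgC against 33.7 ± 1.85 in sgPrkci/Prkcz, -0.11 with a 95% interval of -0.41 to 0.20, and it was called in 0 of 18 alternatives. Mavs was at 26.8, 27.2 and 22.3 CPM in sgC against 35.2, 29.9 and 28.5 in sgPrkci/Prkcz. The groups did not overlap, but the change of 0.28 (interval -0.06 to 0.62) passed the threshold only in 4 of 18 alternatives, which move the centre of all genes or use edgeR. Tbk1 was at 34.9, 43.3 and 40.04 CPM against 27.3, 33.7 and 33.0, also apart between groups, with -0.32 (interval -0.64 to -0.01; limma, Benjamini-Hochberg adjusted p = 0.107).

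None of the 5 transcription factors passed the threshold, and 1 of them did so at an unadjusted p under 0.05. That was Irf3, the factor phosphorylated by TBK1, at 21.1, 24.9 and 26.2 CPM in sgC against 17.6, 19.4 and 16.2 in sgPrkci/Prkcz (-0.42, 95% interval -0.80 to -0.04; limma, Benjamini-Hochberg adjusted p = 0.0780). It overlaps Bcl2l12 on the other strand, which had 27 and 21 reads. Irf1, induced by interferon gamma and by NF-κB, was at 40.2, 31.8 and 41.5 CPM in sgC against 46.0, 46.5 and 40.2 in sgPrkci/Prkcz. These ranges overlapped (0.23, interval -0.08 to 0.53), and the median of its 40 nearest tested genes on chromosome 11 was -0.52. By edgeR its adjusted p was 0.0478, within a range of 6.21e-04 to 0.680 over 18 alternatives. Stat2 (7.02 ± 0.782 and 6.54 ± 2.81 CPM), Irf9 (11.03 ± 2.63 and 12.04 ± 3.63) and Irf7 (2.05 ± 0.639 and 2.35 ± 0.569), the parts of the type I response that interferon itself induces, each overlapped between genotypes. Irf7 overlaps Phrf1 on the other strand, whose 644 and 287 reads exceed its own, and Irf9 overlaps Rnf31.

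Isg15, the ubiquitin-like modifier, had the lowest fold change of the tested set. Isg15 (ENSMUSG00000035692, chromosome 4, 156199424 to 156200818) had 18, 17 and 11 reads in sgC against 2, 2 and 1 in sgPrkci/Prkcz. In CPM this was 6.03, 5.58 and 3.90 against 1.14, 1.11 and 0.648, with no overlap, and the log2 fold change was -1.64 ± 0.35 (SE; limma, Benjamini-Hochberg adjusted p = 5.68e-04). Pooled over each genotype, its level in sgC was 5.31 times that in sgPrkci/Prkcz, with a 95% exact interval of 2.12 to 17.1 that covers counting error only. The median of its 22 nearest tested genes, fewer than elsewhere because it lies near a chromosome end, was -0.03. The guide target Prkcz lies in the same region of chromosome 4, at 155260129 to 155361361, and any link between them was not tested. Because Isg15 is low, its value moved with the pseudocount, to -2.32 at 0.1 and -0.77 at 5, and the call was lost when reads were thinned to the smallest library (adjusted p = 0.0625, the highest of 16 alternatives, the lowest being 1.85e-04). Usp18, the protease that removes ISG15, had 4 reads against 1, too few to test (ratio 2.31, interval 0.229 to 114).

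Antiviral effector genes went both ways. Bst2 (chromosome 8, 71534255 to 71537456), which encodes tetherin, a membrane protein that holds budding virus, stood at 24.5, 23.6 and 18.4 CPM in sgC against 9.09, 13.3 and 15.5 in sgPrkci/Prkcz. It fell without overlap (-0.78 ± 0.22 SE; limma, Benjamini-Hochberg adjusted p = 0.00547). The median of chromosome 8 was -0.40, and with chromosome medians removed the change was -0.39 and no longer called (adjusted p = 0.178, the highest of 18 alternatives, the lowest being 0.00176). The Bst2 call was lost in 3 of 18 alternatives, the others being DESeq2 and reads thinned to the smallest library. Oasl1 (ENSMUSG00000041827, chromosome 5, 114923240 to 114937915), which in mice restrains translation of Irf7 mRNA, stood at 37.5, 40.7 and 41.5 CPM in sgC against 21.6, 27.1 and 23.3 in sgPrkci/Prkcz. This fall was -0.71 ± 0.16 (SE; limma, Benjamini-Hochberg adjusted p = 7.76e-04) against a median of -0.14 for its 40 nearest tested genes, and it was lost only with DESeq2 (adjusted p = 0.0520, the highest of 18 alternatives, the lowest being 4.19e-04). An antisense gene there, Gm13822, had 11 and 4 reads. Its neighbour and paralogue Oasl2 had 11 reads in sgC against 1 in sgPrkci/Prkcz, too few to pass the filter (ratio sgC over sgPrkci/Prkcz 6.35, interval 0.923 to 273). Tags may be shared between such paralogues, and likewise in the Mx, Gbp, Ifit and Ifitm families.

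Isg20 and Mx1 rose. Isg20 (ENSMUSG00000039236, chromosome 7, 78913424 to 78920396), an exonuclease that degrades RNA, stood at 50.6, 39.0 and 42.2 CPM in sgC against 78.4, 77.4 and 104 in sgPrkci/Prkcz. All sgPrkci/Prkcz samples were above all sgC samples (0.96 ± 0.14 SE; limma, Benjamini-Hochberg adjusted p = 2.66e-06), the median of its 40 nearest tested genes was -0.34, and the call was kept in all 18 alternatives. Mx1 (ENSMUSG00000000386, chromosome 16, 97447035 to 97462907), an antiviral GTPase whose allele in C57BL/6 and most other laboratory strains carries a deletion, had 13, 5 and 5 reads in sgC against 10, 17 and 13 in sgPrkci/Prkcz. At the differing depths this was 4.36, 1.64 and 1.77 CPM against 5.68, 9.40 and 8.42, apart but with sgC replicate 1 nearest to the other group (1.35 ± 0.34 SE; limma, Benjamini-Hochberg adjusted p = 0.00226). That call was kept in all 18 alternatives, with values from 0.76 to 1.74. Its neighbour Mx2 had 5 reads in sgC against 3 in sgPrkci/Prkcz (ratio sgC over sgPrkci/Prkcz 0.962, interval 0.187 to 6.20).

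The classical strongly induced genes Ifit1, Ifit3 and Rsad2 were low or near 0 in both genotypes. Ifit1 and Ifit3, which bind foreign RNA, had 1 read each in sgC against 0 in sgPrkci/Prkcz. Rsad2, the antiviral enzyme viperin, was tested and had 16 reads against 5 (1.80 ± 0.452 to 0.995 ± 0.391 CPM; -0.50, 95% interval -1.29 to 0.30). Its groups did not overlap.

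**Figure D3:**
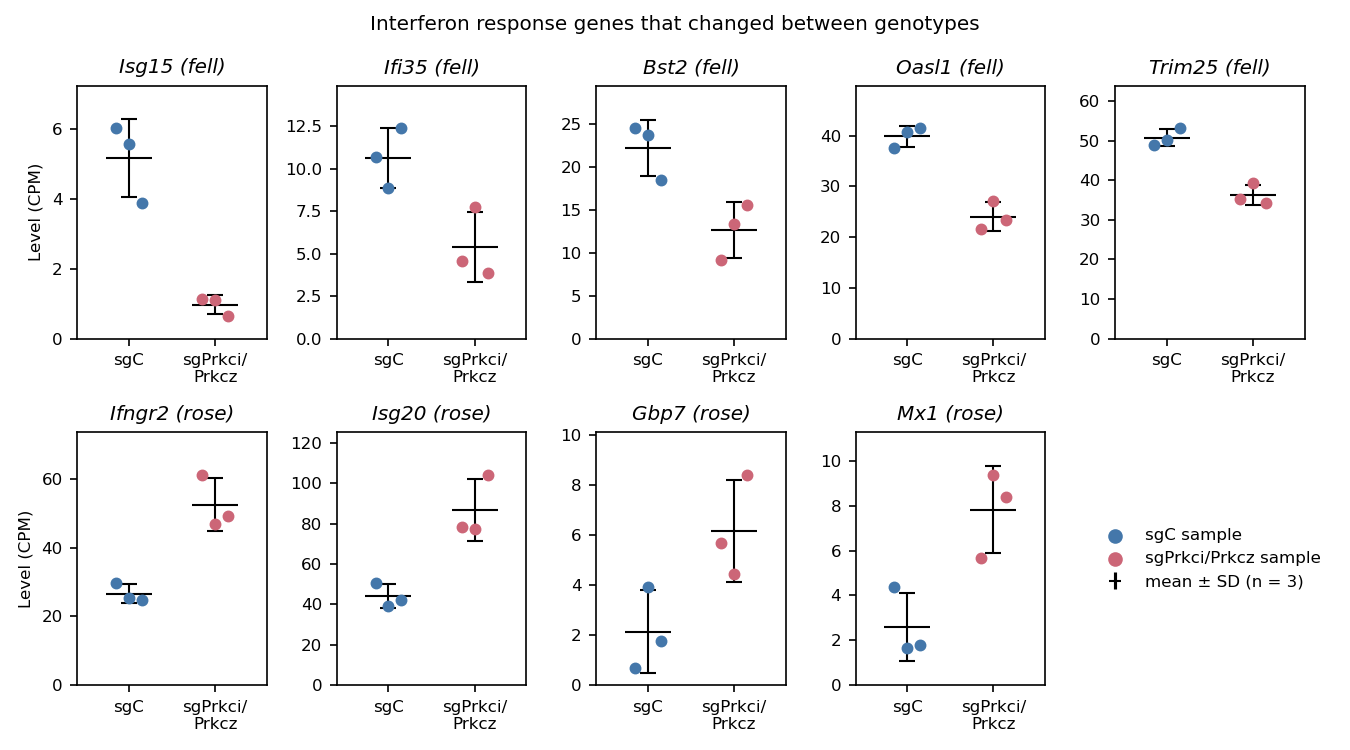
CPM in each sample, with mean ± SD (n = 3), for the 5 genes that fell and the 4 that rose, each panel on its own linear axis from 0. The sgPrkci/Prkcz samples lie wholly below the sgC samples in the upper row and wholly above them in the lower row, where Mx1 and Gbp7 are low and their sgC samples spread widely.

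Of the guanylate-binding proteins, GTPases that attack pathogen compartments, Gbp7 alone was tested. Gbp7 (ENSMUSG00000040253, chromosome 3, 142530342 to 142550149) had 2, 12 and 5 reads in sgC against 10, 8 and 13 in sgPrkci/Prkcz. It rose from 0.670, 3.94 and 1.77 CPM to 5.68, 4.42 and 8.42, with sgC replicate 2 just under the lowest sgPrkci/Prkcz sample (1.30 ± 0.37 SE; limma, Benjamini-Hochberg adjusted p = 0.00766). The call was lost without sgC replicate 1, where the log2 fold change was 0.92, and in 2 other of the 17 alternatives that tested it (adjusted p from 0.00157 to 0.0599 over all 17). Gbp2 had 1 read against 0 and Gbp3 had 1 against 2, both at or under the floor.

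Of the other induced genes, Ifi35 fell. Ifi35 (chromosome 11, 101448407 to 101458698), which partners with the protein NMI, stood at 10.7, 8.86 and 12.4 CPM in sgC against 4.54, 7.74 and 3.89 in sgPrkci/Prkcz. The groups were apart (-0.90 ± 0.28 SE; limma, Benjamini-Hochberg adjusted p = 0.0132), the median of its 40 nearest tested genes was -0.42, and the call was lost in 5 of 18 alternatives. Those include removal of chromosome medians (-0.46) and the fits without sgC replicate 3 (-0.80) and without sgPrkci/Prkcz replicate 3 (-0.73), with adjusted p from 0.00360 to 0.224 over all 18. Parp14, an ADP-ribosyltransferase, was at 11.4 ± 2.28 and 11.9 ± 3.81 CPM (0.04, 95% interval -0.47 to 0.55), and Ifi27, a mitochondrial protein gene, at 3.50 ± 1.33 and 2.68 ± 1.68 CPM (-0.35, interval -1.11 to 0.42). The chemokine gene Cxcl10 had 2, 5 and 2 reads in sgC against 1, 0 and 0 in sgPrkci/Prkcz (ratio sgC over sgPrkci/Prkcz 5.20, 95% interval 0.720 to 228), and Rtp4, a receptor chaperone gene, had 6 against 0 (ratio sgPrkci/Prkcz over sgC 0, interval up to 1.47). Both intervals include no change, and neither gene passed the filter. Ifi44 (1 and 0 reads) and the pro-apoptotic Xaf1 (2 and 3) were at or under the floor.

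The 6 wider pathway lists, written with earlier results of these data known, held the set's neighbours in the pathway. Of 193 listed genes 154 were in the table and 102 were tested. Among these 16 rose and 19 fell, shares of 15.7% and 18.6% beside the background of 11.4% and 23.8%, and their median log2 fold change was -0.11. Relative to the median of all genes, 28 rose and 11 fell, beside 17.4% and 14.4% of all genes. By edgeR, 28 of 86 rose and 12 fell, beside 19.9% and 18.2% of all genes. Of 21 interferon ligand genes 4 were in the table. Ifng and Ifnab had 1 read each in sgC against 0 in sgPrkci/Prkcz, Ifnz 2 and 1, and Ifne, an epithelial type I interferon, 9 and 10, which did not pass the threshold (0.53, 95% interval -0.28 to 1.33).

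**Figure D4:**
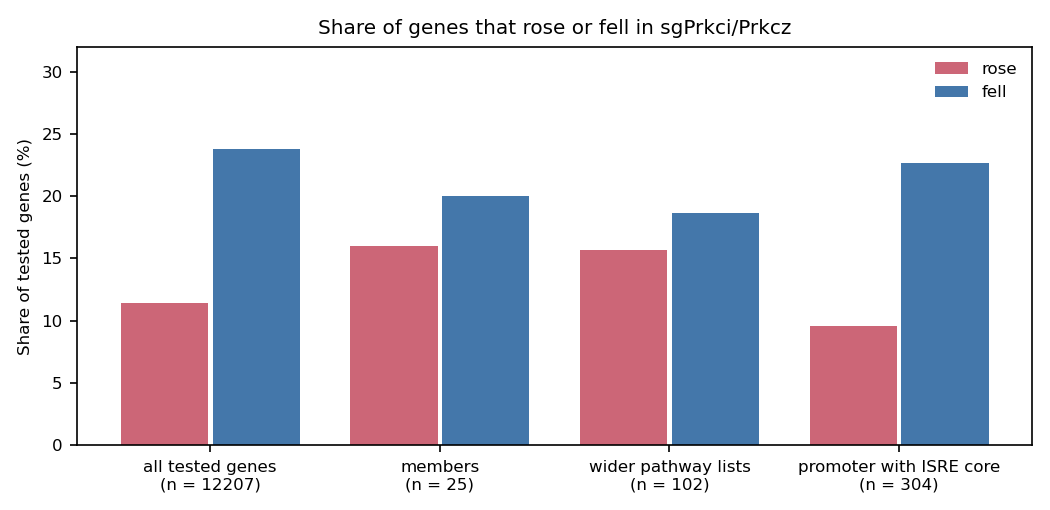
Share of tested genes in percent that rose or fell (limma, Benjamini-Hochberg adjusted p under 0.05) among all tested genes, the set described here, the wider pathway lists, and genes whose promoter window holds an ISRE core. The bars start at 0, and more genes fell than rose in each of the 4 sets.

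Among 7 tested receptor and JAK-STAT genes, Il10rb rose and the kinase gene Jak1 fell, from 208 ± 19.8 to 164 ± 13.4 CPM (-0.34; limma, Benjamini-Hochberg adjusted p = 0.00688), a call lost in 6 of 18 alternatives, among them the fit without sgPrkci/Prkcz replicate 1. Relative to the median of all genes, 4 of the 7 rose and 0 fell, as by edgeR. Over all genes the shares were 17.4% and 14.4% relative to the median, and 19.9% and 18.2% by edgeR. Of 6 tested relatives of the IRF family 3 rose and 0 fell by limma (3 had an unadjusted p under 0.05), beside 11.4% and 23.8% of all tested genes. By edgeR, and also relative to the median of all genes, 5 rose and 0 fell, beside the shares of all genes just given for each. With so few genes these counts were not compared with those of other lists. Irf8, best known from blood cells and also found in gut epithelium, stood at 11.7, 14.1 and 12.4 CPM in sgC against 34.1, 39.3 and 22.02 in sgPrkci/Prkcz (1.22 ± 0.21 SE; limma, Benjamini-Hochberg adjusted p = 2.99e-05). It rose while its 40 nearest tested genes had a median of -0.43. Irf2bpl, a binding partner of IRF2, rose from 65.5 ± 8.25 to 89.8 ± 12.3 CPM (0.45), a call lost without sgPrkci/Prkcz replicate 2 and with limma without trend.

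Of 20 tested negative regulators 1 rose and 6 fell (5% and 30%, beside 11.4% and 23.8% of all tested genes). The balance turned with the centre used. Relative to the median of all genes, 4 rose and 5 fell, beside 17.4% and 14.4% of all genes. With chromosome medians removed, 4 rose and 2 fell, beside 1970 and 1597 of all 12207 tested genes. Samhd1, which limits viral and cellular nucleic acid, stood at 53.6, 54.5 and 52.1 CPM in sgC against 26.1, 24.3 and 21.4 in sgPrkci/Prkcz, with no overlap (-1.13 ± 0.15 SE; limma, Benjamini-Hochberg adjusted p = 7.26e-07). Rnaseh2b, a subunit of the enzyme that removes ribonucleotides from DNA, fell from 24.5 ± 5.18 to 12.5 ± 0.692 CPM (-0.90). Tnfaip3, which encodes the ubiquitin-editing inhibitor A20, rose from 5.70 ± 1.86 to 21.5 ± 3.50 CPM (1.77). The calls of these 3 genes were kept in all 18 alternatives. Of 27 tested genes of further sensing and signalling steps, 6 rose and 7 fell (22.2% and 25.9%). Relative to the median of all genes, 7 rose and 3 fell, again beside 17.4% and 14.4%. Aim2, a DNA sensor of the inflammasome, rose from 65.0 ± 8.46 to 115 ± 10.7 CPM (0.82), and Trim56, a ubiquitin ligase, from 103 ± 15.2 to 155 ± 16.7 CPM (0.60). G3bp1, a stress granule protein gene on chromosome 11, fell from 243 ± 41.0 to 177 ± 8.02 CPM (-0.44), while the median of its 40 nearest tested genes was -0.59. The G3bp1 call was lost in 3 of 18 alternatives, among them removal of chromosome medians, with values from -0.59 to -0.0016 over all 18. Cgas, named after its values were seen, went from 8.34 ± 1.63 to 3.71 ± 1.78 CPM (-1.04; limma, Benjamini-Hochberg adjusted p = 0.0106), lost in 4 of 18 alternatives, 2 of which leave out replicate 2 of either genotype.

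Of 41 tested further interferon-induced genes 5 rose and 5 fell (12.2% each, beside 11.4% and 23.8% of all tested genes). Relative to the median of all genes, 8 rose and 3 fell, beside 17.4% and 14.4% of all genes. The neighbouring genes Ifitm1 and Ifitm2, whose proteins block viral entry, rose. Ifitm1 stood at 123, 119 and 122 CPM in sgC against 263, 263 and 272 in sgPrkci/Prkcz (1.13 ± 0.09 SE; limma, Benjamini-Hochberg adjusted p = 4.03e-11). Ifitm2 rose from 157 ± 9.60 to 235 ± 8.41 CPM (0.58), and Ifitm3, next to them on chromosome 7, stood at 451, 410 and 433 CPM in sgC against 378, 413 and 450 in sgPrkci/Prkcz, which overlap (-0.06, 95% interval -0.23 to 0.10). Plscr2, a paralogue of the induced phospholipid scramblase gene, fell from 26.1 ± 5.40 to 7.03 ± 1.87 CPM (-1.76).

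Genes with an ISRE core in a promoter window were also counted over the whole table, without a test. Of 304 tested genes with at least 1 match 29 rose and 69 fell, 9.54% and 22.7%, with a median log2 fold change of -0.15. Of the 8645 with a window and no match, 11.9% rose and 24.9% fell, with a median of -0.16. Among the 40 genes themselves a match was found for 2 of the 5 that fell, for 1 of the 3 that rose and had a window, and for 4 of 13 that were tested, had a window and did not pass the threshold. Of the 8 genes too low to test that had a window, 5 held a match.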

How the data were processed

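RNA of 6 mouse samples (200 ng each) went into 3′ tag libraries, with molecular identifiers named as optional, sequenced from 1 end for 75 bases, per the labels' protocols. The authors deposited 1 table of CPM values, and each column sums to 1000000. GRCm38 is the build named in the submitters' processing notes. For the aligner, counter, strand setting and identifiers, the answer is not given in the sources used here. Columns were matched to samples by title, and genes to symbols by GENCODE M21 (20675 of 20756 identifiers). Dividing each deposited CPM by its library's smallest nonzero CPM gave a whole number for 100% of values (relative tolerance 1e-06), so whole reads were recovered. No replicate pair agreed within sampling noise (chi-square per degree of freedom 1.56 to 3.40).

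CPM was tested with limma 3.58.1 (R 4.3.3; mean-variance trend, robust) on log2(CPM + 1). The 12207 genes reaching 1 CPM in 3 or more samples were tested, genotype as the single factor, with Benjamini-Hochberg adjustment over all of them. This scale understates changes of low genes. Intervals on fold changes are limma's. edgeR 4.0.16, which called 3754 genes, and DESeq2 1.42.0 were run on the recovered reads. On simulated data for this comparison, limma over 12240 genes recovered 91% of 100 genes changed 2-fold and 99% of 100 changed 4-fold. The changed genes were drawn from those with an sgC mean of at least 5 CPM. The simulated dispersion was the same for every gene, and no shift shared by all genes was added. Of the 38 genes, 16 had means under 5 CPM in both genotypes, and recovery of such low genes was not measured. All 40 genes are accounted for. Of each wider list up to 3 called genes with the smallest adjusted p are named, or all where 5 or fewer were called, except an item that is not reported here. The older symbol Mb21d1 was read as Cgas. Members, lists and tests were chosen with earlier results of these data known. Alternatives were 2 pseudocounts, 2 filters, 4 scalings, limma without trend, edgeR, DESeq2, thinned reads and each sample left out. The medians of neighbouring genes, and the naming of Cgas, Ifitm3 and the genes around the receptors, were added after the data were seen.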

Additional observations from a re-analysis of the deposited data

How the results depend on the processing

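Counts of genes are given as risen and fallen, against 4 and 5 in the set of 40, 16 and 19 in the wider lists, and 1391 and 2909 over all genes. In the set of 40 the risen were 7 with quantile normalization, edgeR and removed chromosome medians and 8 with the median change set to 0. The fallen were 3 with quantile normalization, edgeR and thinned reads, 2 with chromosome medians removed and 1 with DESeq2. In the wider lists the risen were 26 with quantile normalization, 28 with edgeR and after setting the median change to 0, and 25 with TMM-scaled CPM and with chromosome medians removed. The fallen there were 11 with limma without trend and after setting the median change to 0, 12 with edgeR, 4 with DESeq2 and 9 with chromosome medians removed. Over all genes the risen were 1869 with quantile normalization, 1875 with TMM-scaled CPM and 1962 with edgeR. They were 1970 with chromosome medians removed and 2125 with the median change set to 0. The fallen over all genes were 1936 with quantile normalization, 1756 with the median change set to 0, 1792 with edgeR, 1072 with DESeq2 and 1597 with chromosome medians removed. They were 2139 with thinned reads and 2089 with limma without trend. Scalings that move the centre of all genes raise the risen and lower the fallen by construction. Isg15 was not among the genes that edgeR tested, and the cause of the other shifts was not tested. Leaving out 1 sample at a time gave 3 to 4 risen and 4 to 5 fallen genes in the set of 40, with a rise lost without sgC replicate 1 (Gbp7). Over all genes it gave 1080 to 1286 risen and 1999 to 2795 fallen. With the median of the 40 nearest tested genes subtracted, Trim25 stood at 0.0932 and so changed sign. Isg20, Ifngr2 and Mx1 kept their call and direction in all 18 alternatives. Isg15, Mx1 and Gbp7 were below 10 CPM, and their values at a pseudocount of 5 were -0.77, 0.76 and 0.66. Depth was lower in every sgPrkci/Prkcz library, and genes at a few reads could not be tested. No paired analysis was possible because the labels give the genotypes no shared replicate numbers.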

Other observations

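Samples of a genotype differed among themselves in the set of 40. In sgC replicate 1, 17 of the 25 tested genes lay above their group mean, against 9 in sgC replicate 2 and 13 in sgC replicate 3. The sgPrkci/Prkcz samples had 10, 14 and 14 genes above their group mean. In sgC replicate 1 Ddx58 was at 15.4 CPM against 8.20 and 8.50 in the other sgC samples, and Mx1 at 4.36 against 1.64 and 1.77. Ifnar1 was lower there than in the other sgC samples, at 6.03 CPM against 10.2 and 11.3. Between 31 and 34 of the 38 genes had at least 1 read in an sgC library, and 27 or 28 in an sgPrkci/Prkcz library, where depth was lower.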
